A study of Mus musculus with 11 samples.

Results

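FICZ was added to monocyte cultures that received no Jagged-1, and the 2 samples with FICZ were compared with the 2 samples without it. These 4 samples are part of 11 bulk RNA-seq samples of CD11b-low EpCAM+ cells sorted after 6 days of culture of mouse bone marrow monocytes, a culture model of monocyte-derived Langerhans cells whose product is called mLC-like cells. The control group, TGFβ/IL-34, received 20 ng/ml GM-CSF, 5 ng/ml TGFβ and 8 µg/ml IL-34. The FICZ group, TGFβ/IL-34/FICZ, received the same 3 factors and FICZ, at a dose that the labels do not give. Both groups therefore share GM-CSF, TGFβ and IL-34, and neither shows what FICZ does without them. The labels name the OP9 stromal line as partner of the monocytes in all samples, but the study's methods also describe monocytes cultured without it, and whether the 4 samples without Jag1 held OP9 cells could not be settled. Of 21860 genes in the table, the 13095 with a normalised count of at least 10 in at least 2 of the 11 samples were tested. Because the 2 FICZ samples differed strongly from each other, a change is described only where both FICZ values lay on the same side of both control values.

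FICZ is a tryptophan photoproduct and a ligand of the aryl hydrocarbon receptor, Ahr, and the study uses it as an agonist. Ahr is a ligand-activated transcription factor: without ligand it is held in the cytosol by chaperones, and with ligand it pairs with Arnt in the nucleus and binds a short DNA element with the core GCGTG. Its best known targets are the cytochrome P450 genes Cyp1a1 and Cyp1b1 and its own repressor Ahrr. Langerhans cells, the phagocytes of the epidermis, express Ahr at a high level, and langerin (Cd207), EpCAM and E-cadherin mark them.

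The 2 FICZ samples stood further apart than any other pair of replicates. Between them 4562 genes (34.8%) differed by more than 2-fold, against 939 (7.17%) between the 2 control samples and 7.83% to 14.9% between replicates of the groups with Jag1. FICZ replicate 1 departed from the control mean with transcript length: the median difference was +1.35 on the log2 scale for genes with a canonical transcript under 1 kb and −0.99 for those over 8 kb. In FICZ replicate 2 the same medians were 0.12 and −0.04. Mitochondrial genes took 1.0% of the total in FICZ replicate 1 and 2.38% to 2.61% in the other 3 samples. In the samples with Jag1 that share ran from 0.895% to 2.42%. Totals were 21.3 to 27.8 M normalised counts, from an estimated 22.3 to 24.3 M reads, so a value of 0 allows up to 2.68 to 3.44 normalised counts (3 reads, counting error only). The sorted marker Epcam was present in all 4 samples, at 5943 and 3952 with FICZ and 5050.4 and 4706 without.

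**Figure D1:**
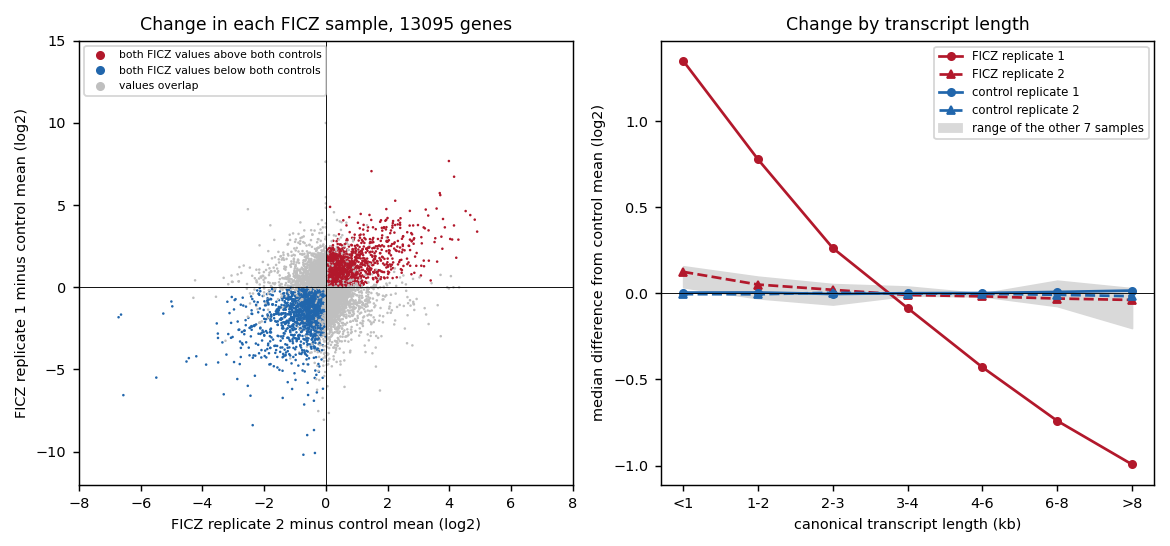
Left, each point is 1 of 13095 genes, with its difference from the control mean in FICZ replicate 2 on the x axis and in FICZ replicate 1 on the y axis (log2 of the normalised count + 1). Red and blue mark the genes without overlap between the groups. Right, median difference from the control mean (log2) by canonical transcript length in kb for each of the 4 samples, with the range of the other 7 samples in grey. The line of FICZ replicate 1 runs from 1.35 to −0.99, and the other 3 stay near 0.

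Both FICZ values lay above both control values for 2954 genes (22.6% of those tested) and below both for 3026 (23.1%). A gap of more than 2-fold between the nearest values of the groups was found for 200 genes that were higher (1.53%) and 204 that were lower (1.56%). At that limit lay Sult2b1 just inside (17.9 and 19.2 with FICZ, 2.69 and 8.42 without) and Arhgdig just outside (14.9 and 5.32, 2.17 and 0), and among the lower genes Usp45 inside (203 and 354, 744 and 709) and Mcoln2 outside (80.5 and 143, 286 and 408). By limma on log2(normalised count + 1), with the spread taken over all 5 groups and Benjamini-Hochberg adjustment over all tested genes, 2 genes rose (0.0153%) and 1 fell (0.00764%) at an adjusted p under 0.05. At an unadjusted p under 0.05 there were 2284 genes. In limma on these 4 samples alone no gene passed (lowest adjusted p 0.663, 617 genes at an unadjusted p under 0.05), and an exact permutation test of 2 against 2 allows no p below 0.333. The labels do not say whether replicates came from separate animals, so p-values measure only the spread between these samples. Fold changes are on the log2(normalised count + 1) scale and understate the change of low genes.

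The genes that passed were Cyp1a1, Cyp11a1 and Myrf. Cyp1a1 (ENSMUSG00000032315, GRCm39 chr9:57595211-57611107, plus strand), the classical Ahr target, stood at 2079 and 1933 normalised counts with FICZ and at 68.1 and 100.1 without. The groups were far apart and each pair was close, with a log2 fold change of 4.59 ± 0.43 (SE) and a limma adjusted p of 0.00994. Cyp11a1 (ENSMUSG00000032323, chr9:57913694-57935933, plus strand) encodes the enzyme that opens steroid synthesis by cutting the side chain of cholesterol. It stood at 4747 and 3431 with FICZ and at 757 and 927 without, a log2 fold change of 2.27 ± 0.27 (limma adjusted p 0.0449). Myrf (ENSMUSG00000036098, chr19:10185634-10218161, minus strand), a membrane-bound transcription factor best known from oligodendrocytes, stood at 49.999 and 94.3 with FICZ and at 391 and 369 without. Its log2 fold change was −2.45 ± 0.30 (limma adjusted p 0.0449). In all 3 genes the groups did not overlap, and the same 3 passed after the trend with transcript length was removed from every sample (adjusted p 0.00957, 0.0161 and 0.0161). No gene passed when either control sample or FICZ replicate 1 was left out, and 5718 did without FICZ replicate 2. With the replicate number, the experiment code of the authors' file or the sample name suffix as block, or with array weights, 0 passed, and 1 did with the experiment code of the description.

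The sequence before the start of Cyp1a1 shows the Ahr element in these letters. The 1000 bases upstream of the canonical start of each gene (GENCODE vM39, GRCm39) were searched for TNGCGTG on both strands, in which CACGCNA is the same element read from the other strand. Cyp1a1 held 6 matches, Cyp1b1 and Ahrr 2 each, Nqo1 and Cyp2s1 1 each, and Cyp11a1, Myrf, Cd207, Tiparp and Serpinb2 none. The matches of Cyp1a1, with 10 bases on each side and the element in capitals, are shown in order from far to near the start, because it is the gene with the lowest adjusted p, followed by a match each of the targets Nqo1 and Ahrr.
Cyp1a1, 630 bases before the start (chr9:57603502-57603528): ttgagttagaCACGCCAagttcagatg
Cyp1a1, 454 bases before the start (chr9:57603678-57603704): ccgagcatcgCACGCAAacccggccct
Cyp1a1, 309 bases before the start (chr9:57603823-57603849): ctcccccagcTAGCGTGacagcactgg
Cyp1a1, 232 bases before the start (chr9:57603900-57603926): aggctcttctCACGCAActccggggca
Cyp1a1, 143 bases before the start (chr9:57603989-57604015): caggcttacgCACGCTAgcctcaggaa
Cyp1a1, 72 bases before the start (chr9:57604060-57604086): tcctgctgtcTCGCGTGgatccttcct
Nqo1, 290 bases before the start (chr8:108130208-108130234, minus strand): acccttccccTAGCGTGcaaaggtgac
Ahrr, 17 bases before the start (chr13:74440463-74440489, minus strand): gcggggcggcTCGCGTGctggggtggg

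The nearest 300 bases of Cyp1a1 and of Cyp11a1, the other gene that rose, differ in the 5-letter core GCGTG (or CACGC), which stands in capitals.
Cyp1a1 (chr9:57603842-57604141, plus strand): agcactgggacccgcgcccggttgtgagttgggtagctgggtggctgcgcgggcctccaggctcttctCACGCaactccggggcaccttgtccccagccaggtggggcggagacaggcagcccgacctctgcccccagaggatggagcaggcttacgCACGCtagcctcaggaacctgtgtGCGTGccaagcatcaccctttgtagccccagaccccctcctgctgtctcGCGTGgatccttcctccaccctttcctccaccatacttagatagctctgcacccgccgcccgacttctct
Cyp11a1 (chr9:57921566-57921865, plus strand): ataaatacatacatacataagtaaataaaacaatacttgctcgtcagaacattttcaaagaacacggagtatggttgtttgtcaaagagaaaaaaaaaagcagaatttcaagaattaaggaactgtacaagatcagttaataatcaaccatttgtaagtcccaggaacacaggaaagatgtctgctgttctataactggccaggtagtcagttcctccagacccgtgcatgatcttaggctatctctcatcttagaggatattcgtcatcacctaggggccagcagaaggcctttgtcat
The core occurs 4 times in the first sequence and not at all in the second, and 43.5% of 13070 genes hold it in their 300 bases. The longer element was in the 1000 bases of 15.2% of all tested genes, of 14.1% of the 199 genes with a start that were higher by more than 2-fold and of 13.4% of the 202 that were lower. Among the listed Ahr targets 6 of 13 held it. A match describes these letters only, and an absent match says nothing of Ahr at other sites.

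Among 14 listed Ahr target genes, 13 could be tested, and of these 8 were higher without overlap (61.5%, against 22.6% of all genes), 2 were lower (15.4%, against 23.1%) and 3 overlapped. Their median log2 fold change was 0.74, against −0.02 over all tested genes. Of them, 9 lay above both controls and 2 below in FICZ replicate 2 alone, against 4962 and 4934 of all genes. Cyp1a1 alone of them passed the test. Cyp1b1, a P450 of the same family, stood at 3780.1 and 7391 with FICZ and at 2570.2 and 2556 without, so that its level was high also in the cultures that received no FICZ. Nqo1, a quinone reductase, stood at 568 and 348 against 158 and 173. Serpinb2, a protease inhibitor of monocytes, stood at 73.5 and 83.5 against 10.1 and 14.2, low in all 4 samples but well apart. Scin, an actin-severing protein, stood at 6186 and 10549 against 3478 and 4798.5, and Xdh, the xanthine oxidoreductase, at 2565 and 1941 against 1386 and 1285. These genes had log2 fold changes of 0.74 to 2.61 and limma adjusted p of 0.285 to 0.294. Tiparp, which modifies and restrains Ahr, lay above both controls by little (2979.5 and 3688 against 2755 and 2652, log2 fold change 0.29).

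Not every target was higher. Ahrr, the repressor that Ahr induces, stood at 3002 and 5044 with FICZ, on either side of the controls (4282 and 4099). Cyp2s1, another P450, was lower in both samples at 15.02 and 23.4 against 51.8 and 45.8. Ugt1a6a, a glucuronosyltransferase, was lower as well (14.8 and 21.7 against 32.4 and 57.1), while its neighbour Ugt1a6b stood at 262 and 4.48 against 0 and 2.86. The Ugt1a genes share their last exons, so the split of reads between them is uncertain. Cyp1a2, the listed gene not tested, was under the limit for testing, with 3.46 in FICZ replicate 1 and 0 in the other 3 samples.

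Ahr itself was lower in both FICZ samples, at 916 and 3085 against 5561 and 5170.4 (log2 fold change −1.67 ± 0.47, limma adjusted p 0.285). The 2 FICZ values lay far apart, with replicate 1 much lower than replicate 2. Of 10 listed signalling components, Ahr among them, 5 were higher and 2 lower without overlap, none by a gap of 2-fold. Of the chaperones that hold the receptor, Hsp90aa1 stood at 5236 and 7437 against 4389 and 4841. Arnt, its partner on DNA, was lower at 761 and 1368.5 against 1494 and 1399. Of 12 tested genes of tryptophan metabolism, 2 were higher (16.7%) and 4 lower (33.3%), not far from the 22.6% and 23.1% of all genes. The higher ones were Ido1 and Ido2, the enzymes that open the path to kynurenine: Ido1 stood at 162 and 144 against 55.0 and 71.2, and Ido2 at 48.6 and 80.9 against 21.5 and 29.7. Kmo, which acts further along that path, was lower at 2316 and 4002 against 4679 and 4287.

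**Figure D2:**
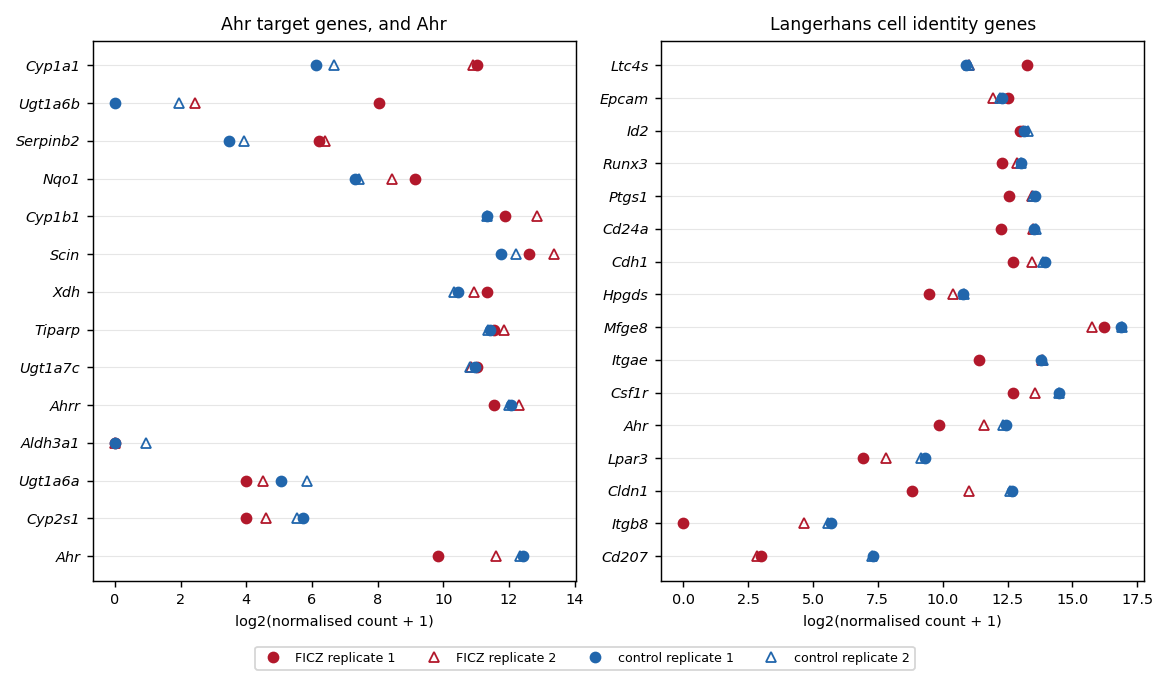
Values of the 4 samples, as log2(normalised count + 1) on the x axis, for the 13 tested Ahr target genes and Ahr (left) and the 16 Langerhans cell identity genes (right), each panel ordered by log2 fold change, with Ahr last on the left. Red marks FICZ and blue the controls, with filled circles for replicate 1 and open triangles for replicate 2. Cyp1a1 leads the targets with 2079 and 1933 against 68.1 and 100.1, and Cd207 stands at the foot of the Langerhans genes with 6.90 and 6.21 against 157 and 154.

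Langerhans cell identity genes were lower. Of 16 listed and tested genes, 13 lay below both controls (81.2%, against 23.1% of all genes), 1 above (Ltc4s) and 2 overlapped (Epcam and Itgae). The median log2 fold change of the list was −0.90, and −0.96 after the length trend was removed. None passed the test by itself (lowest adjusted p 0.26). In FICZ replicate 2 alone, 14 of the 16 lay below both controls, compared with 4934 of the 13095 genes tested. Cd207, which encodes langerin, showed the widest gap among lower genes whose controls averaged 100 or more: it stood at 6.90 and 6.21 with FICZ and at 157 and 154 without, a log2 fold change of −4.37 ± 1.08. Cldn1, the tight junction protein claudin-1, stood at 449 and 2083 against 6561 and 6161, and Lpar3, a receptor for lysophosphatidic acid, at 121 and 224 against 646 and 565. Csf1r, the receptor of IL-34, stood at 6679.9 and 11954 against 22668 and 23145. Mfge8, a bridge for the uptake of apoptotic cells, stood at 75340 and 55708 against 121690 and 124390. Epcam and Id2, a transcriptional regulator that Langerhans cells need, were nearly level: Id2 stood at 8169.5 and 8799 against 8999 and 9989. In bulk samples, fewer cells of a type and less RNA per cell cannot be told apart.

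The genes with the widest gaps are named in each direction, as the 12 whose higher group averaged 100 or more. The higher ones, from the widest gap, were Cyp1a1, Gm10401, Igfbp7, Pdzph1, Ctsg, Elane, Peg10, Gpc3, Il12rb1, Cpa3, Plac8 and Sgce. Igfbp7, a secreted binding protein, stood at 308 and 161 with FICZ and at 23.6 and 20.1 without. Peg10 and Sgce, imprinted neighbours on chromosome 6, stood at 569 and 653 against 77.0 and 105 and at 171 and 51.3 against 8.20 and 10.4. Gpc3, a cell surface proteoglycan, stood at 410 and 178 against 5.31 and 33.9, and Il12rb1, a chain of the IL-12 and IL-23 receptors, at 251 and 165 against 25.2 and 31.6. That the groups lay apart in these genes was fixed by the choice of the widest gaps. Plac8, a marker of classical monocytes, stood at 3153 and 2796 against 303 and 586, with a log2 fold change of 2.81 ± 0.40 (limma adjusted p 0.0815). Pdzph1 reached 298 and 49.5 against 6.99 and 0. Gm10401, which had no place in the annotation used, stood at 204 and 14.9 with FICZ and was listed at 0 in both controls, and at 0 in all samples with TGFβ/IL-34 and Jag1. Without its FICZ values it would not have reached the limit for testing, 10 in at least 2 of the 11 samples.

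The 12 lower genes were Cd207, Grap2, Ifi44, Vipr1, Trp53i11, Myrf, Nrp1, Mndal, Camk2d, Ifi207, Ifi211 and Sall2. Trp53i11, a gene induced by p53, stood at 191 and 426 with FICZ and at 2294.5 and 1839 without. Nrp1, a co-receptor for semaphorins and VEGF, stood at 14.8 and 24.5 against 117 and 96.9, and Vipr1, a receptor for the neuropeptide VIP, at 12.9 and 22.6 against 112 and 176. Camk2d, a calcium-dependent kinase, was close within each group at 41.1 and 43.4 against 162 and 146. Grap2, an adaptor protein, stood at 0 and 63.8 against 343 and 326, so that its 2 FICZ values were far apart. Sall2, a zinc finger transcription factor, stood at 161 and 94.4 against 511 and 484. Ifi44, Mndal, Ifi207 and Ifi211 belong to interferon-inducible families, the latter 3 from a cluster of near copies on chromosome 1 whose reads can be shared. Mndal stood at 74.4 and 236 against 835 and 899.9, and Ifi207 at 34.2 and 305 against 957 and 1007.

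**Figure D3:**
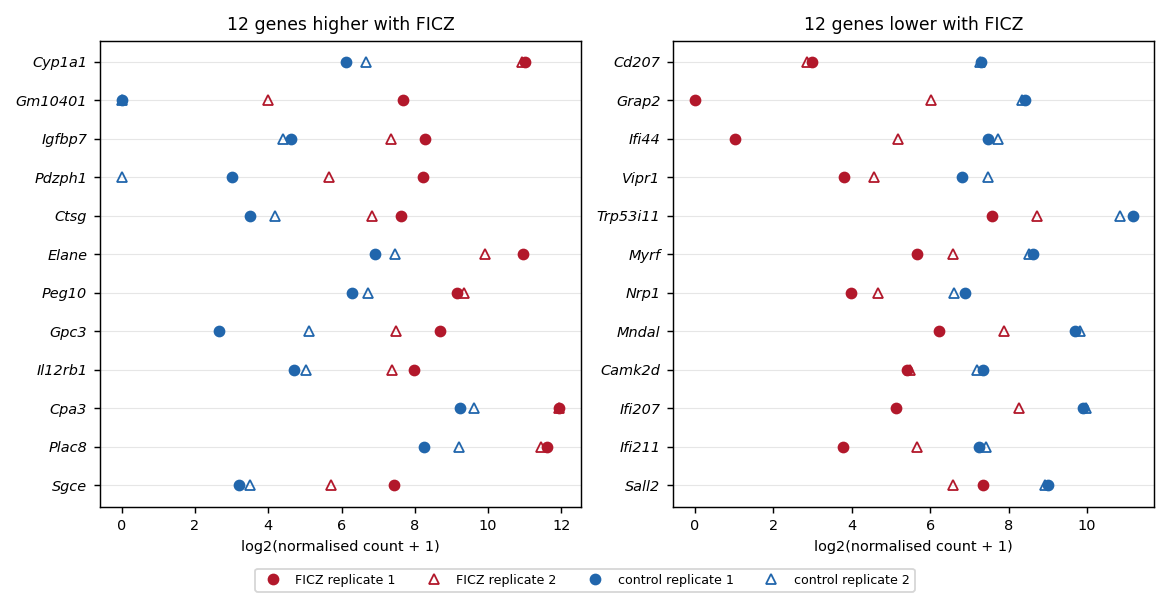
The 12 higher and 12 lower genes with the widest gaps among those whose higher group averaged 100 or more, with log2(normalised count + 1) of each of the 4 samples on the x axis. Red marks FICZ, blue the controls, filled circles replicate 1 and open triangles replicate 2. No gene overlaps, by the choice of genes, and the FICZ values of Cyp1a1, Cpa3, Plac8, Cd207 and Camk2d lie close together while those of Grap2 (0 and 63.8) lie far apart.

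Interferon-stimulated genes were lower or overlapped. Of 29 tested, 18 lay below both controls (62.1%, against 23.1% of all genes), none above and 11 overlapped, with a median log2 fold change of −0.76 and −0.92 without the length trend. In FICZ replicate 2 alone 23 of them lay below both controls and 4 above, against 4934 and 4962 of all 13095 genes. Ifi44 stood at 1.02 and 35.0 with FICZ and at 178 and 213 without. Among the enzymes and effectors of the antiviral state, Oas3 stood at 355 and 603 against 1199 and 1027, and Oas2 at 0 and 5.55 against 30.4 and 72.1. Irf7, the factor that amplifies the interferon response, stood at 174 and 146 against 342 and 413. Rtp4 (3.33 and 4.01 against 19.7 and 46.4) and Ifit3 (0 and 6.24 against 18.1 and 18.1) were at low levels, where counting error weighs most. None of these genes passed the test (lowest limma adjusted p of the list 0.282).

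Macrophage genes were mostly lower as well. Of 21 tested, 13 lay below both controls (61.9%, against 23.1% of all genes) and 4 above (19.0%, against 22.6%). Their median log2 fold change was −0.68. Taken alone, FICZ replicate 2 lay below both controls in 15 and above in 5, against 4934 and 4962 of all 13095 genes. Mertk, a receptor for apoptotic cells, stood at 11.4 and 26.7 with FICZ and at 81.6 and 114 without (log2 fold change −2.39, limma adjusted p 0.0919). Its relative Axl was far more abundant and also lower, at 5269.9 and 12412 against 22691 and 20413. The complement gene C1qc stood at 154 and 319 against 626 and 529. The scavenger and lectin receptors Marco (28.8 and 0 against 66.7 and 163), Mrc1 (30.5 and 0 against 70.1 and 139) and Siglec1 (1.17 and 17.4 against 46.8 and 171) were low throughout. The 4 genes above both controls went against the list. Apoe, a carrier of lipids, stood at 2741 and 646 against 357 and 323, and Gpnmb at 12647 and 7619 against 3896 and 5138. Cd63 stood at 14597 and 5838.5 against 4095 and 5119, and Cd68 at 1537 and 957 against 634 and 639. Summed over the 24 listed genes, the level was 48400 and 46000 with FICZ and 53200 and 51800 without.

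Genes of antigen presentation on MHC class II were lower in 7 of 14 tested (50%, against 23.1% of all genes) and higher in 1 (7.14%, against 22.6%). Their median log2 fold change was −0.42, and −0.85 without the length trend. In FICZ replicate 2 alone 13 of the 14 lay below both controls and 1 above, against 4934 and 4962 of all 13095 genes. In replicate 1 alone 7 lay below and 5 above, not far from the shares of all genes (6073 and 5779). H2-Ob, part of the modulator that tunes peptide loading, stood at 717 and 1017 with FICZ and at 2796 and 2617 without (log2 fold change −1.66, limma adjusted p 0.0815). Ciita, the master regulator of the class II genes, stood at 2247.5 and 8069 against 15072 and 12989. The chains of the class II molecules themselves, H2-Ab1 and H2-Eb1, stood at 163860 and 116060 against 220560 and 181380, and at 114470 and 69488 against 141970 and 114940. For H2-Eb1 the groups nearly met, at 114470 with FICZ and 114940 without.

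Granulocyte and mast cell genes were higher or overlapped, and none lay below both controls. Of 17 tested genes of neutrophil granules and granulocyte progenitors, 8 lay above both controls (47.1%, against 22.6% of all genes), 5 of them by more than 2-fold, and the median log2 fold change was 1.61. These transcripts were short, with a median of 1230 bases against 3410 over all genes, and the median was 1.38 without the length trend and 1.43 in FICZ replicate 2 alone. The serine proteases of the primary granule stood together: Elane at 1978 and 964 with FICZ and 120 and 176 without, Prtn3 at 1522.5 and 661 against 87.8 and 174, and Ctsg at 197 and 113 against 10.3 and 17.2. Ms4a3, which marks granulocyte-monocyte progenitors, stood at 421 and 484 against 77.6 and 93.6. Cebpe, the transcription factor of late granulocyte development, stood at 995 and 704 against 109.7 and 203 (log2 fold change 2.48, limma adjusted p 0.0919). Lcn2, an antimicrobial protein of the secondary granule, was uneven at 3405 and 337 against 103 and 229.

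Of 11 tested mast cell and basophil genes, 7 lay above both controls (63.6%, against 22.6% of all genes) and none below. Their median log2 fold change was 1.0, and 0.74 without the length trend. Taken alone, FICZ replicate 2 lay above both controls in 10 and below in 1, against 4962 and 4934 of all 13095 genes. Cpa3, the carboxypeptidase of mast cell granules, stood at 3941 and 3889 with FICZ and at 607 and 781 without, with a log2 fold change of 2.51 ± 0.34 (limma adjusted p 0.0675). Mcpt1, a mast cell protease, stood at 858 and 2517 against 155 and 497.5, Mcpt8, a protease of basophils, at 72.7 and 87.3 against 34.4 and 44.7, and Hdc, which makes histamine, at 611 and 257 against 121 and 126. Kit, the receptor for stem cell factor, differed little (1486 and 1759 against 1024.5 and 1313). The defining genes Fcer1a, Mcpt4 and Tpsab1 were at 0 in all 4 samples. Of 36 myeloid transcription factors 8 lay above both controls (22.2%, against 22.6% of all genes) and 13 below (36.1%, against 23.1%). Gfi1b stood at 123 and 172 against 35.2 and 50.7, and Myb, of progenitors, at 244 and 789.5 against 118 and 216. Cebpa, of granulocytes, was lower at 1387 and 1423 against 2339 and 1908, and Mitf, of mast cells, at 111 and 165 against 247 and 281. Itga2b, the integrin chain CD41 of megakaryocytes and progenitors, stood at 5322 and 4432 against 1924 and 2151 (log2 fold change 1.25, limma adjusted p 0.0815). The erythroid gene Alas2 and the platelet gene Gp9 were at 0 in all 4.

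Monocyte genes stood near the background on the higher side: of 20 tested, 5 lay above both controls (25.0%, against 22.6% of all genes). Another 2 lay below (10%, against 23.1%), and 13 overlapped, as did 7115 of all 13095 tested genes. Ly6c2 stood at 569.9 and 757 with FICZ and at 177 and 436 without, and Plac8 as given above. Ccr2, the receptor by which monocytes leave the marrow, was lower at 30.8 and 134 against 318 and 253. Of the 36 myeloid transcription factors counted above, 8 were higher (22.2%) and 13 lower (36.1%), against 22.6% and 23.1% of all genes. Klf4 (30.4 and 30.2 against 64.5 and 153) and Egr2 (146 and 429 against 745 and 954) were among the lower ones.

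Genes of the cell cycle were higher by small amounts. Of 35 DNA replication genes 23 lay above both controls (65.7%, against 22.6% of all genes) and 2 below, with a median log2 fold change of 0.55. Of 33 genes of mitosis and the spindle 20 lay above (60.6%) and 1 below, with a median of 0.60. No member reached a gap of 2-fold or passed the test (lowest limma adjusted p 0.156 and 0.26). In FICZ replicate 2 alone 31 of 35 and 30 of 33 lay above both controls, against 4962 of all 13095 genes. Tyms, which makes thymidylate, stood at 703 and 659.8 against 269 and 360.5. Rrm1, a subunit of ribonucleotide reductase, stood at 2171 and 1574 against 1023.5 and 1095. Of the mitotic genes, the kinase Aurka stood at 472 and 439.6 against 204 and 245, and Cdk1, the kinase that starts mitosis, at 666 and 596 against 319.6 and 407.

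**Figure D4:**
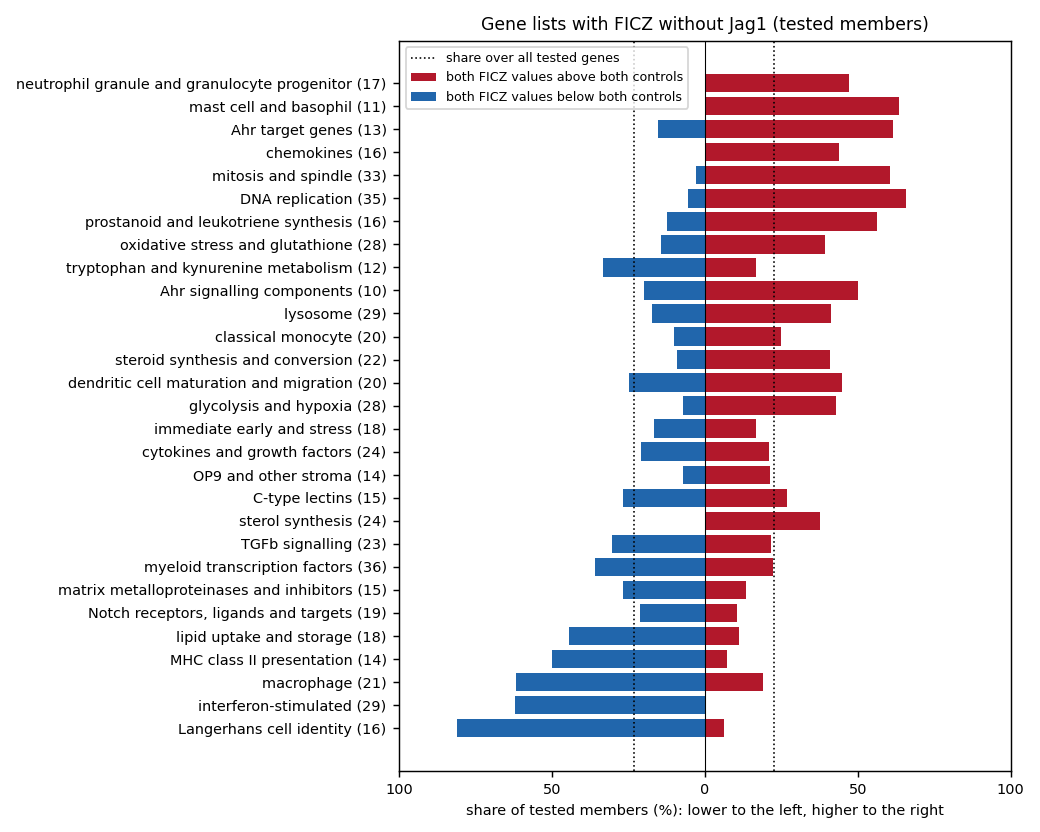
Share of the tested members of each gene list (number in brackets, lists with at least 10) whose FICZ values both lay above (red, to the right) or below (blue, to the left) both control values, in percent, ordered by median log2 fold change. Dotted lines give the shares over all tested genes, 22.6% and 23.1%. Langerhans cell (81.2%), interferon-stimulated (62.1%) and macrophage genes (61.9%) extend furthest to the left, and DNA replication (65.7%), mast cell (63.6%), Ahr target (61.5%) and mitosis genes (60.6%) to the right.

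Around Cyp11a1, enzymes of steroid and lipid mediator synthesis were examined. Of 22 tested steroid genes 9 lay above both controls (40.9%, against 22.6% of all genes) and 2 below (9.09%, against 23.1%). In FICZ replicate 2 alone 13 lay above and 6 below, against 4962 and 4934 of all 13095 genes. The median log2 fold change of the list was 0.22, and 0.0035 without the length trend. Akr1c18, Akr1c12 and Akr1c13, neighbouring reductases of steroids and related compounds, stood at 368 and 118 against 40.4 and 56.4, at 547 and 351 against 165 and 242, and at 1675.5 and 1406 against 758 and 849.8. They resemble one another in sequence, so reads can be shared, and the log2 fold change of Akr1c13 was 0.94, and 0.47 without the length trend. Hsd17b4 was lower at 2199 and 3155 against 3816 and 3684. Cyp17a1, Cyp19a1 and Cyp11b1, which act after Cyp11a1 on the way to sex steroids and corticosteroids, were at 0 in all 4 samples. Of 16 tested prostanoid and leukotriene genes 9 lay above both controls (56.2%, against 22.6%) and 2 below (12.5%, against 23.1%). In FICZ replicate 2 alone 11 lay above and 5 below. Ptgs2, the inducible cyclooxygenase, stood at 155 and 93.4 against 19.2 and 34.1, Pla2g7, which breaks down platelet-activating factor, at 6696 and 3871 against 1755 and 1878, and Lta4h, of leukotriene B4 synthesis, at 4728 and 4708 against 3217 and 3417. Hpgds, a prostaglandin D synthase, was lower at 714 and 1333.5 against 1759 and 1817.

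Other lists had median log2 fold changes of −0.28 to 0.33 without the length trend, except markers of converting monocyte-derived cells (−0.59). Their shares were not all near those of all genes. The higher share ran from 10.5% (Notch) to 45.0% (dendritic cell maturation), against 22.6% of all genes. The lower share ran from 0% (chemokines and sterol synthesis) to 50% (converting cells), against 23.1%. Of 16 chemokines 7 lay above both controls and none below, with a median log2 fold change of 0.60 that was 0.23 without the length trend (median transcript 1060 bases). Ccl5 stood at 6930 and 3862 against 2055 and 2535, and Ccl9 at 2923.5 and 1731 against 654 and 1416. Of 28 genes of oxidative stress and glutathione 11 lay above (39.3%) and 4 below (14.3%), among them Gstm1, a glutathione transferase, at 4581 and 1963 against 959.96 and 1057. Of 20 genes of dendritic cell maturation 9 were higher (45.0%) and 5 lower (25.0%). Ccr7, the receptor that guides cells to lymph nodes, was higher at 62312 and 42401 against 32181 and 33735. Irf4 was lower at 5620 and 8604 against 11727 and 10574, and Nr4a3 at 3950 and 8047 against 9259 and 8934. Of 24 sterol synthesis genes 9 were higher and none lower, but the median log2 fold change was −0.12 and the FICZ samples went opposite ways: 22 lay above both controls and 1 below in replicate 2, and 10 above and 14 below in replicate 1 (Mvk 806 and 733 against 544 and 449). Of 18 lipid genes 8 were lower and 2 higher, with the nuclear receptor Rxra at 616 and 846 against 2444 and 2154. Of 23 TGFβ signalling genes 5 were higher and 7 lower. The receptors Tgfbr1 (986 and 5278 against 6809 and 6186) and Tgfbr2 (542 and 1611 against 1969.7 and 1899) were lowest in FICZ replicate 1. Of 19 Notch genes 2 were higher and 4 lower, 10.5% and 21.1%. Glycolysis and hypoxia (12 higher, 2 lower of 28), lysosome (12 and 5 of 29), cytokine (5 and 5 of 24), C-type lectin (4 and 4 of 15), metalloproteinase (2 and 4 of 15) and immediate early genes (3 and 3 of 18) had medians between −0.27 and 0.23, and Dcstamp, Itgax, Ccl17 and Mgl2, as markers of converting monocyte-derived cells, included 1 higher and 2 lower.

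Markers of other cell types differed in level. Sums over the 4 samples ranged from 67.8 to 472 normalised counts for the T and NK, B cell and keratinocyte lists. They ranged from 846 to 22800 for the stromal, erythroid and megakaryocyte, progenitor, neutrophil and mast cell lists. Of 18 stromal markers 7 were at 0 in all 4 samples (Acta2, Col1a2, Cxcl12, Dcn, Fbln2, Lum and Pdgfra) and 13 under 10, and their summed level was 12200 and 3710 normalised counts with FICZ and 846 and 1240 without. Nearly all of that sum was Thy1, which T cells and other leukocytes carry too, at 12178 and 3578 against 790 and 1185. T and NK cell markers summed to 266 and 144 against 67.8 and 112. Of 6 tested genes 5 lay above both controls (83.3%, against 22.6% of all genes). Among them Cd3g stood at 93.9 and 24.5 against 0 and 2.78, Gzma at 9.19 and 5.23 against 0 and 0, and Nkg7 at 17.6 and 12.7 against 1.13 and 3.10. Ncr1 was at 0 in all 4, and Cd3e stood at 4.80 and 0.93 against 4.95 and 0. Keratinocyte keratins Krt1, Krt5, Krt14 and Krt15 and Trp63 were at 0, while Perp (313 and 114 against 38.1 and 59.0) and Dsp (142 and 175 against 50.3 and 86.5), proteins of desmosomes, were higher. Erythroid and megakaryocyte markers summed to 6050 and 4590 against 2030 and 2380, most of it Itga2b. B cell and plasmacytoid markers summed to 347 and 124 against 81.4 and 94.3. Of 5 tested 1 was higher (20.0%, against 22.6% of all genes) and 1 lower (20.0%, against 23.1%). Haematopoietic progenitor markers summed to 16000 and 22800 against 19200 and 20400, with 2 of 8 tested higher (25.0%) and 1 lower (12.5%). The neutrophil and mast cell lists summed to 11200 and 5420 against 1020 and 2730, and to 10100 and 15900 against 6540 and 7240. The part of any such cell in the changes above was not tested.

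Some genes split the 2 FICZ samples and are given as values only. In FICZ replicate 1, Ddit3, a factor of the stress response, stood at 2334 against 180 in FICZ replicate 2 and 218 and 189 in the controls, and Gdf15, a stress-induced cytokine, at 646 against 43.5, with 92.5 and 114 in the controls. Cox6a2 (279.6 against 9.41) and Gm10401 (204 against 14.9) were high there too, and Ugt1a9 stood at 1019.9 against 0 in the other 3 samples. In the opposite direction Zbed6 stood at 1.15 in FICZ replicate 1 and at 1823 in replicate 2 (2420.0 and 2239.6 in the controls), and Zc3h11a, the gene in whose intron Zbed6 lies, at 0 and 703. Kcna3, a potassium channel, stood at 0 and 334 with FICZ and at 524 and 493 without, 9930111J21Rik1 at 0 and 314, and Gm45140 at 0 and 261.

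FICZ was also compared in cultures that held Jag1, 3 samples with FICZ against 3 without, and this contrast shares no sample with the one above. Presence of Jag1 and of OP9 cells may go together in these groups and then cannot be told apart. There 1433 genes rose (10.9%) and 879 fell (6.71%) at an adjusted p under 0.05. Of the 200 genes higher by more than 2-fold without Jag1, 181 changed in the same direction with Jag1 (90.5%, against 49.3% of all tested genes with a positive sign) and 133 rose (66.5%), while 2 fell. Of the 204 lower genes, 161 had the same direction (78.9%, against 50.7%) and 81 fell (39.7%), while 7 rose. The difference between both FICZ effects, tested as an interaction over all genes, passed for 182 genes (1.39%), among them 23 of the 200 and 4 of the 204. Replicate 1 of both FICZ groups shares a suffix in the sample names that all other samples lack, and the labels do not say what the suffix means.

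For Cyp1a1 and Cyp1b1 the FICZ effects differed by the interaction test, and the samples with Jag1 and no FICZ started lower. Cyp1a1 stood at 0 to 0.98 with Jag1 and at 604 to 671 with Jag1 and FICZ, so that its level with FICZ was below that of 2079 and 1933 without Jag1. Cyp1b1 stood at 1.04 to 4.76 with Jag1 and 2384 to 2996 with both, against 2570.2 and 2556 in TGFβ/IL-34 with no FICZ at all. Its log2 fold change was 9.59 with Jag1 and 1.04 without (limma interaction adjusted p 0.00048, and 0.0082 for Cyp1a1), and folds from such low starts depend on the pseudocount. Cyp11a1 stood at 86.3 to 145 with Jag1 and at 4237 to 5428 with both. Cd207 was highest with Jag1, at 1366 to 1784, and stood at 6.29 to 132 with both, against 6.90 and 6.21 with FICZ and no Jag1. Myrf stood at 914.5 to 969 with Jag1 and at 323 to 469 with both. For Cd207 and Myrf the interaction did not pass (adjusted p 0.436 and 0.181), with differences between the 2 log2 fold changes of −1.89 ± 1.39 (SE) and 1.16 ± 0.39.

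**Figure D5:**
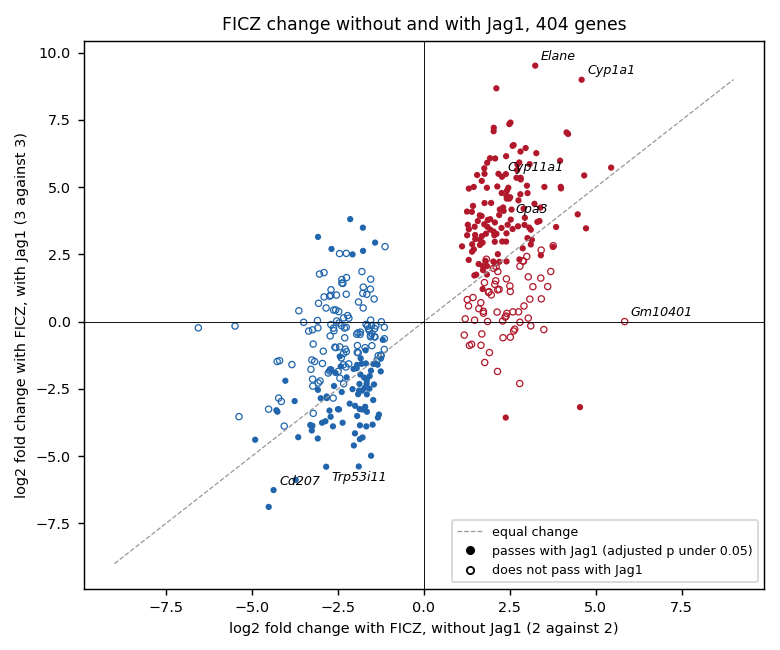
Log2 fold change with FICZ without Jag1 (x axis, 2 samples against 2) and with Jag1 (y axis, 3 against 3) for the 200 higher (red) and 204 lower genes (blue) with a gap of more than 2-fold. Filled points passed with Jag1, and the dashed line marks equal changes. Most red points lie above 0, 181 of 200, and most blue points below, 161 of 204.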

How the data were processed

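The values are the authors' deposited normalised counts, a normalised signal per gene: salmon estimates summed to genes with tximport and scaled with DESeq2 (Ensembl GRCm39 transcripts, versions not given in the sources used here). They are not whole reads, so no count model was run. The authors' second file holds an experiment code and condition per sample. The code differed from the sample description for TGFβ/IL-34 replicate 1.

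The 13095 genes that reached 10 normalised counts in 2 or more of 11 samples were tested. In R 4.3.3, limma 3.58.1 (lmFit, contrasts.fit, eBayes with a trend) was fitted to log2(value + 1) with 1 mean for each of 5 groups and 6 residual degrees of freedom, two-sided, with Benjamini-Hochberg adjustment over all tested genes and a threshold of 0.05. For the alternative without the length trend, a lowess (span 0.3) of each sample's deviation on log2 canonical transcript length was subtracted; this and its combination with the replicate block were chosen after seeing the data. The gap between groups was log2(lowest higher value + 1) minus log2(highest lower value + 1). Genes were named if they passed, if they were among the 12 per direction with the widest gap whose higher group averaged 100 or more, if they were among up to 4 per direction of each list without overlap, as anchors (Ahr, Ahrr, Tiparp, Cyp1a1, Cyp1b1, Nqo1, Cd207, Epcam, Mfge8, Id2, Plac8, Ly6c2 and Cyp11a1), or among the 5 per direction that differed most between the FICZ samples. A few list members outside this rule were chosen after their values were seen. The members and lists were chosen with earlier results of these data known. Alternatives were pseudocounts, filters, quantile normalisation, array weights, blocks and leaving out each sample. List counts in FICZ replicate 2 alone were added after seeing the data. Values of a few list members are not reported here. Scripts were tested on simulated data. Of the table, 21676 genes matched GENCODE vM39.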

Additional observations from a re-analysis of the deposited data

Results flagged for a closer look

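Among 123 genes examined for this comparison, the effect of FICZ differed with and without Jag1 for 21 (limma interaction test, adjusted p under 0.05). Over all 13095 tested genes 182 did (1.39%), and the 123 were chosen partly by their FICZ change in these same data. In each of the 21 the log2 fold change was larger in size with Jag1. Some of these folds start near 0 with Jag1 and no FICZ, as for Cyp1a1 (0 to 0.98), Elane (0 to 9.07) and Akr1c18 (0 to 4.09). The values that follow are the differences between both log2 fold changes, with Jag1 minus without. They were Cyp1b1 (8.55), Cyp1a1 (4.41) and Scin (2.15) among the Ahr targets, Akr1c18 (6.57), Cyp11a1 (3.12), Akr1c12 (2.51), Akr1c13 (1.58) and Pla2g7 (1.73) among steroid and lipid mediator enzymes, and Elane (6.28), Cebpe (4.86), Mcpt1 (5.30), Cpa3 (2.12), Gfi1b (3.73), Myb (4.51) and Itga2b (1.96) among granulocyte, mast cell and progenitor genes. Others were Ly6c2 (4.01), Ccl9 (3.96), Dsp (3.69) and Thy1 (3.15). Ccr2 (4.29) changed sign, with a log2 fold change of −2.12 without Jag1 and 2.17 with it, and Plin2, which coats lipid droplets, was lower with both and by more with Jag1 (−2.24, from −0.34 to −2.58). The number of genes passing this test ranged from 9 to 5488 when each of the 4 samples without Jag1 was left out. The groups without Jag1 hold 2 samples each, and no group allowed a check for outlying samples, which needs at least 4.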

How the results depend on the processing

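The log2 fold changes of 123 genes examined kept their direction under all alternatives run, except for Ahrr, Epcam and Id2, which differed little between the groups. Genes named because their groups did not overlap cannot change direction when a sample is left out. For them that part of the check was fixed by the choice of genes. Ahrr (log2 fold change −0.11) stood at 0.025 with the sample name suffix as block and at 0.10 without the length trend, with or without the replicate block, and at −0.48 to 0.27 when each sample was left out. Epcam (−0.01) stood at 0.16 and 0.22 with blocks for the codes of the description and of the authors' file and at −0.30 to 0.29 with each sample left out, and Id2 (−0.16) at 0.058 with the code of the description. The cause was not tested.

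The 3 genes that passed became 5 with quantile normalisation, 1 with blocks for the code in the sample description, and 0 with the code of the authors' file, the sample name suffix, array weights or only the 2 groups of the contrast (limma; 2786, 881, 798 and 617 genes at an unadjusted p under 0.05). Leaving out each sample gave 0 to 5718. None passed without TGFβ/IL-34 replicate 1 or 2 or FICZ replicate 1, and 5718 did without FICZ replicate 2. Each of these fits leaves 1 sample in a group, and its spread is then taken from the other groups. That holds for the fits with 0 genes as well as for the fit with 5718, and the cause of the difference was not tested. Cyp1a1 kept a log2 fold change of 4.31 to 4.86. Genes with different FICZ effects (182) numbered 74 with no filter, 8 with array weights, 44 with the code of the description, and 9 to 5488 with each sample left out. With a sample left out, fewer values can overlap by construction: 3918 to 5779 genes were then higher and 4136 to 6073 lower without overlap, 317 to 1870 higher and 370 to 2246 lower by more than 2-fold. The 204 lower genes became 134 at a pseudocount of 4, 309 with no filter and 107 at a minimum of 50, and the 200 higher genes 116 at that minimum, where fewer genes are tested.

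Whether the replicate numbers pair the FICZ and control samples could not be settled. The correlation of the deviations of same-numbered samples was −0.00699 over 13095 genes. It cannot decide this, because the deviation between the FICZ samples carries the length trend of replicate 1. In the description, FICZ replicate 2 shares its experiment code with control replicate 1, and FICZ replicate 1 shares its code with no control. The authors' file gives both replicates 1 the same code. With the replicate block 0 genes passed (2407 at an unadjusted p under 0.05, lowest limma adjusted p 0.0588), and 381 interactions passed with the block and without the length trend. With 2 samples a group, 1 of them length-dependent, small changes were not detectable.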
